A study of Homo sapiens with 6 samples.

Results

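Ribosome collision and rescue genes were examined in RNA sequencing of HEK-293T cells with and without THUMPD1. The set held 37 genes out of 58870 genes in the count table. They were listed by function, but with earlier results of these data known. They cover collision sensing, splitting of stalled ribosomes, the ubiquitin marks placed on them, degradation of the unfinished protein, termination, and the helper complex of the cytosolic exosome. All 37 were found in the table under the listed symbols, and all 37 were among the 15088 genes that reached a CPM value (counts scaled to the library total) of 1 in at least 3 of the 6 libraries.

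HEK-293T is an immortalized line of human embryonic kidney origin. WT cells (labelled Thumpd+/+) were compared with THUMPD1 KO cells, which were made from them with CRISPR-Cas9 and taken through single-cell sorting, with 3 libraries of total RNA per genotype. The labels name no clone, and they do not say whether the replicates came from separate cultures, so that p values measure the spread between these libraries, which may be technical. Both lines were grown in DMEM without any treatment. THUMPD1 is the partner with which the acetyltransferase NAT10 modifies a cytidine in leucine and serine tRNAs.

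Ribosomes that stop on an mRNA are run into by those behind them, and the interface between the collided ribosomes is read by a set of dedicated factors. Ubiquitin ligases mark the collided particle, other factors pull it apart, the unfinished protein on the released large subunit is tagged and degraded, and the mRNA is silenced or cut. Kinases bound to collided ribosomes also pass the signal on to the integrated stress response and to the ribotoxic stress response. Much of this pathway is known from human embryonic kidney cells and yeast.

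THUMPD1 itself was examined first, as a check of the labels. It averaged 80.9 CPM in WT (SD 3.65, n = 3) and 11.04 CPM in THUMPD1 KO (SD 0.918, n = 3), a log2 fold change of −2.87 (SE 0.085, limma-voom, adjusted p = 3.166e-08). Library totals lay between 32225646 and 44099898 counts, so that 1 CPM stood for 32.2 to 44.1 counts. All 7 markers of embryonic kidney lineage and HEK-293 neurofilaments were above 1 CPM in every library (summed level 217 to 246 CPM in WT and 208 to 222 CPM in THUMPD1 KO). Of these, 4 were higher and 2 lower in THUMPD1 KO, where 13.7% and 13.0% of all genes tested were. These sums hide opposite changes of the neurofilament genes, since NEFM fell from 35.3 to 5.33 CPM on average (log2 fold change −2.75, adjusted p = 1.3e-05) and NEFL rose by 0.31 (adjusted p = 0.00443). The lineage markers also split. EYA1 fell (log2 fold change −0.46, adjusted p = 0.0075), while PAX2 (0.64, adjusted p = 0.0231), LHX1 (0.59, 0.0423) and SALL1 (0.20, 0.0278) rose. PAX2 passed in 12 of the 16 other fits, and LHX1 and SALL1 each passed in 10. Among markers of differentiated nephron, UMOD and AQP2 were at 0 in all libraries. Of 5 markers of blood, endothelium and fibroblasts, COL1A1 and COL3A1 were above 1 CPM throughout, with a summed list level of 14.8 to 19.7 CPM in WT and 11.7 to 16.6 CPM in THUMPD1 KO. COL1A1 fell by 0.48 on the log2 scale (adjusted p = 0.0160), a call lost without THUMPD1 KO replicates 2 (0.0903) or 3 (0.0722). The part of these marker levels in the results below was not tested. Libraries of replicate 1 lay farthest from the others of their genotype, and the genes among the 37 whose call changed without them are given with that value. As in any bulk sample, less RNA per cell and fewer cells with the RNA cannot be told apart.

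Of the 37 genes, 10 (27.0%) passed the threshold of 0.05 on the adjusted p, next to 26.7% of all genes tested. The share is near the background, so the count is no result about these genes. TRIP4, RNF10, RNF14, USP10 and G3BP1 rose (13.7% of all genes did), and ZNF598, GIGYF1, ASCC2, UFD1 and GSPT1 fell (13.0% of all genes did). Changes were small: the 10 genes had a median absolute log2 fold change of 0.22, from 0.16 for UFD1 to 0.44 for GSPT1. The median over all 37 genes was 0.024, with 21 positive and 16 negative values, and over all genes tested it was 0.016. The 3 WT and 3 THUMPD1 KO levels did not overlap for 16 of the 37 genes, where 42.2% of all genes tested had no overlap.

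Standard errors were smaller than over all genes tested, and most of these genes are well expressed. Their median WT level was 89.1 CPM, next to 25.4 CPM over all genes tested. TRIP4 (12.4 CPM) and RNF25 (15.5 CPM) lay below the latter. Each had between 473 and 59253 counts per library, and the median standard error of their log2 fold changes was 0.047, next to 0.070 over all genes tested. For the 27 genes that did not pass, every 95% interval of the log2 fold change lay between −0.30 and 0.30. Larger changes than these were therefore outside the intervals of all 27 genes, while a p that misses the threshold does not show that a gene was equal in both lines.

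**Figure D1:**
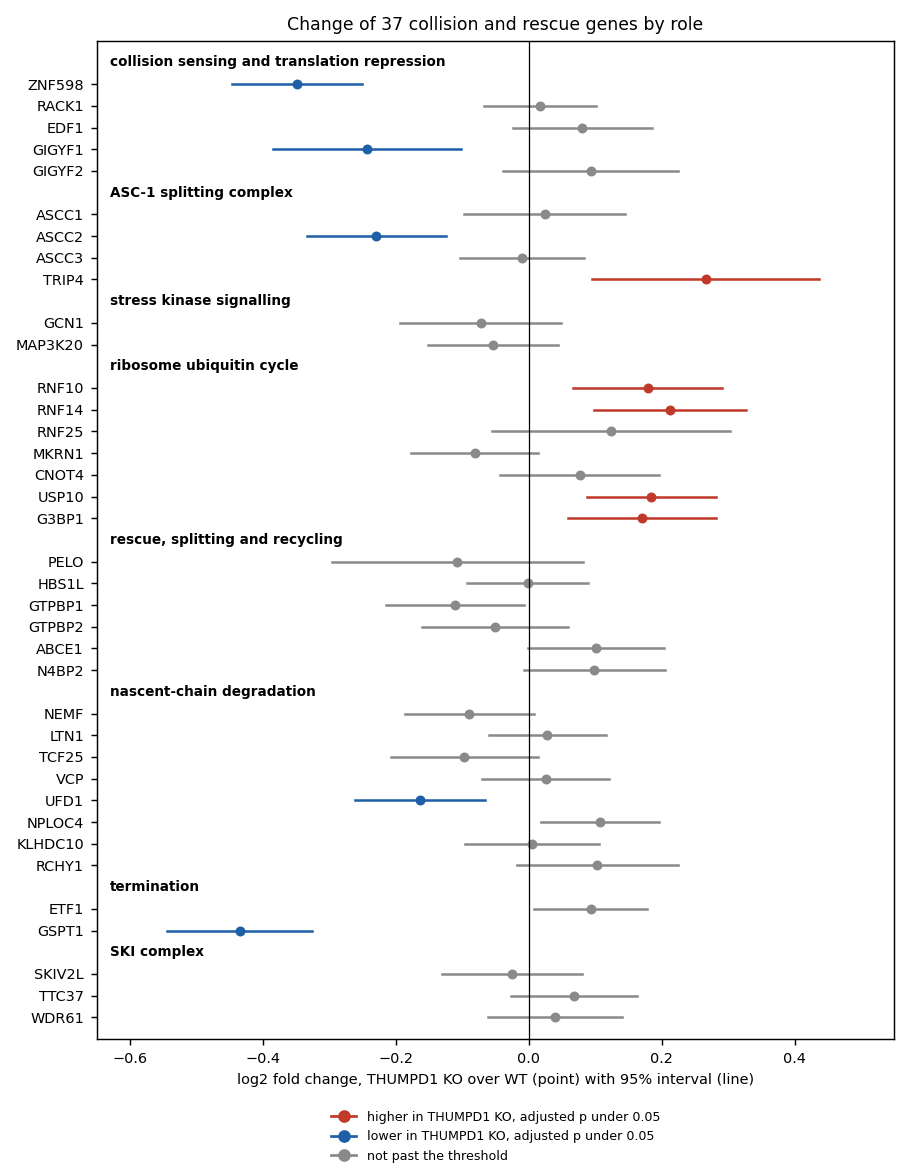
Log2 fold change of each of the 37 genes in THUMPD1 KO over WT (point) with its 95% interval (line), grouped by role, from 3 libraries per genotype. Red genes rose, blue genes fell and grey genes did not pass the threshold, and 4 of the 5 red points belong to the ribosome ubiquitin cycle. The ubiquitin ligase ZNF598, a blue point, is grouped under collision sensing.

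Collision sensing and repression of the stalled mRNA rest on ZNF598, RACK1, EDF1 and the GIGYF proteins. Of these 5 genes, 2 fell and none rose, where 13.0% and 13.7% of all genes tested did, and the median log2 fold change was 0.017. Calls by role, here and below, are counts over few genes and stand as descriptions. ZNF598 (ENSG00000167962.14, GRCh38 chromosome 16, 1997654 to 2009821, minus strand) encodes the ubiquitin ligase that recognises collided ribosomes and marks proteins of the small subunit. It was at 88.5, 88.8 and 88.0 CPM in WT replicates 1, 2 and 3 and at 69.6, 66.7 and 72.9 CPM in THUMPD1 KO replicates 1, 2 and 3. Every THUMPD1 KO library was below every WT library, and WT libraries differed by less than 1 CPM. The log2 fold change was −0.35 (SE 0.044, adjusted p = 3.1e-04), and ZNF598 passed in all 16 other fits, with values from −0.38 to −0.25.

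GIGYF1 (ENSG00000146830.10, chromosome 7, 100679507 to 100694250, minus strand) is an adaptor that holds a cap-binding repressor on the mRNA. Its levels were 119, 103 and 101 CPM in WT and 95.5, 87.4 and 92.9 CPM in THUMPD1 KO. WT replicate 1 was the highest library, and the genotypes did not overlap. GIGYF1 had a log2 fold change of −0.24 (SE 0.064, adjusted p = 0.0172). GIGYF1 no longer passed without THUMPD1 KO replicate 2 (adjusted p = 0.080), without THUMPD1 KO replicate 3 (0.0533) or after removal of the GC and length trends of each library (0.0603), out of a range of 6.22e-04 to 0.080 over all settings. With those trends removed, its log2 fold change shrank to −0.15.

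GIGYF2, the paralog of GIGYF1 in the same repressor complex, was at 129, 138 and 129 CPM in WT and 131, 149 and 153 CPM in THUMPD1 KO. Replicate 1 of THUMPD1 KO lay among the WT libraries, and the other two lay above all of them. GIGYF2 had a log2 fold change of 0.09 (adjusted p = 0.274), which passed without THUMPD1 KO replicate 1 (0.16, adjusted p = 0.0376) and without replicate 1 of both genotypes (0.14, adjusted p = 0.0287). With THUMPD1 KO replicate 3 left out it was farthest from passing (adjusted p = 0.631).

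RACK1, a protein of the small subunit at the surface where collided ribosomes touch, had the highest level of the 37 per length. It stood at 1374, 1460.1 and 1413 CPM in WT and at 1437, 1344 and 1349 CPM in THUMPD1 KO. One THUMPD1 KO library lay within the WT range and the other two below it. Its log2 fold change was 0.02 after quantile normalization (adjusted p = 0.782) and −0.07 with TMM library sizes, so no direction can be given. EDF1, which binds collided ribosomes and recruits GIGYF proteins, was at 83.0 CPM in WT (SD 3.34, n = 3) and 88.1 CPM in THUMPD1 KO (SD 3.22, n = 3). Its log2 fold change of 0.08 (adjusted p = 0.233) became 0.16 with the GC and length trend removed (adjusted p = 0.0202).

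The ASC-1 complex uses the helicase ASCC3 to pull the leading ribosome off the mRNA. Of its 4 genes, TRIP4 rose and ASCC2 fell, where 13.7% of all genes tested rose and 13.0% fell. ASCC2 (ENSG00000100325.15, chromosome 22, 29788609 to 29838304, minus strand), the subunit that binds ubiquitin chains, was at 58.8, 56.8 and 56.7 CPM in WT and at 48.0, 48.3 and 51.0 CPM in THUMPD1 KO. The genotypes were well apart, and the log2 fold change was −0.23 (SE 0.047, adjusted p = 0.00516). ASCC2 passed in every fit, with values from −0.26 to −0.20.

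TRIP4 (ENSG00000103671.9, chromosome 15, 64387748 to 64455303, plus strand), the zinc finger subunit also called ASC-1, had the fewest counts of the 37 genes. It was at 12.1, 12.1 and 12.9 CPM in WT and at 14.5, 15.0 and 14.7 CPM in THUMPD1 KO. All THUMPD1 KO libraries lay above all WT libraries. This was a log2 fold change of 0.27 (SE 0.077, adjusted p = 0.0268). The call needed WT replicates 1 (adjusted p = 0.0575 without it) and 2 (0.0722) and THUMPD1 KO replicates 2 (0.108) and 3 (0.0748), and it was lost by DESeq2 (0.0668) and without the CPM filter (0.0662), while the estimate stayed between 0.22 and 0.31.

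ASCC3 was at 197, 202 and 200.3 CPM in WT and at 197, 211 and 193 CPM in THUMPD1 KO, on both sides of the WT range. It had a log2 fold change of −0.01 (95% interval −0.10 to 0.08). ASCC1, a further subunit, had a log2 fold change of 0.02 (95% interval −0.10 to 0.14). The signs of both turned under other settings. The 4 mRNAs of this complex thus ran from −0.23 for ASCC2 to 0.27 for TRIP4.

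Stress kinase signalling from collided ribosomes is represented by GCN1, the scaffold that lets the kinase GCN2 respond to stalled ribosomes, and by MAP3K20, which encodes the kinase ZAK. Neither passed. GCN1 was at 363, 330.1 and 352 CPM in WT and 319, 329.7 and 358 CPM in THUMPD1 KO, with the genotypes intermixed. MAP3K20 was at 54.7, 55.7 and 54.3 CPM in WT and 54.3, 51.7 and 52.7 CPM in THUMPD1 KO, the highest of which lay just under the lowest WT library. The log2 fold changes were −0.07 (adjusted p = 0.358) and −0.05 (adjusted p = 0.403). EIF2AK4, which encodes GCN2, was at 62.3 CPM in WT (SD 2.39, n = 3) and 59.7 CPM in THUMPD1 KO (SD 0.831, n = 3) (log2 fold change −0.06, adjusted p = 0.392).

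In the ribosome ubiquitin cycle, 4 of 7 genes rose and none fell, and the median log2 fold change was 0.17, with 6 positive values. The members that rose have opposite known roles, since RNF10 and RNF14 are ubiquitin ligases while USP10 removes ubiquitin with G3BP1 as its partner. For comparison, 13.7% of all genes tested rose. ZNF598, also a ligase that marks proteins of the small subunit, was grouped under collision sensing instead, and it fell (log2 fold change −0.35). That no gene fell thus depends on the grouping. The roles were grouped with earlier results of these data known, so this count stands as a description. The promoter stretches of the 4 genes are printed here, because these genes passed the threshold within this role. They were picked for printing after their values were seen. They come from RefSeq on GRCh38.p14, lie upstream of the start that RefSeq gives, stop at the first base annotated as exonic in GENCODE 44, and carry in capitals any match to the CCAAT box (CCAAT), the GC box (GGGCGG) or the ETS core (CCGGAAG) on either strand. USP10 holds 2 GC boxes and 1 ETS core, RNF10 holds 1 GC box, G3BP1 holds 4 CCAAT boxes and RNF14 holds 1. For RNF10, RNF14 and G3BP1 the RefSeq start lies inside the longer GENCODE gene span given further on, so that other annotated starts of these genes lie outside the stretches.
RNF10, chr12:120534106-120534307, plus strand: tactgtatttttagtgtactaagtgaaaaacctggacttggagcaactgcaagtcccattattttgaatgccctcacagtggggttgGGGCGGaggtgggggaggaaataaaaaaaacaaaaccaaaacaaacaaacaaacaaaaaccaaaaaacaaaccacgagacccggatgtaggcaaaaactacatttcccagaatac
RNF14, chr5:141966593-141966819, plus strand: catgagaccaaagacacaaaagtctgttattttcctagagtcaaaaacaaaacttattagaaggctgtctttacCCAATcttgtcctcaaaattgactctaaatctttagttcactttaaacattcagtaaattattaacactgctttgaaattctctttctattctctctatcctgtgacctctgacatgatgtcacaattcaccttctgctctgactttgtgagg
USP10, chr16:84699750-84699985, plus strand: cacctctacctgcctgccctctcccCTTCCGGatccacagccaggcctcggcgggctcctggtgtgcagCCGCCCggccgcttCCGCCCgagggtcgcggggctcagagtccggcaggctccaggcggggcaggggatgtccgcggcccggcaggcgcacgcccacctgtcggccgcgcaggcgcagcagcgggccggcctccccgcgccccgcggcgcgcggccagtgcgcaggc
G3BP1, chr5:151771704-151771883, plus strand: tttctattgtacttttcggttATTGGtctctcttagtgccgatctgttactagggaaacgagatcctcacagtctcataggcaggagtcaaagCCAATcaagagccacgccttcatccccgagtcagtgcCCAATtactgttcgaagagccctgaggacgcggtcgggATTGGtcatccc

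None of these motifs was in all 4 stretches, and matches to different motifs did not overlap in them. In the 250 bases before the start, a CCAAT box was found in 33.0% of 27305 RefSeq genes and in 10 (30.3%) of the 33 collision and rescue genes with an entry. A GC box was found in 42.3% of all and in 19 (57.6%) of the 33. The ETS core was found in 8.82% of all and in 6 (18.2%) of the 33, namely ETF1, GCN1, NPLOC4, USP10 and the genes now called SKIC2 (SKIV2L) and SKIC8 (WDR61). ABCE1 alone held a cAMP response element (TGACGTCA, 1.77% of all), and none held the composite element read by ATF4 (TGATGNAA, 3.19% of all). These matches are letters in a window and were not tested as binding sites.

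USP10 (ENSG00000103194.15, chromosome 16, 84699986 to 84779922, plus strand), the deubiquitinase that returns marked small subunits to use, was at 160.2, 159 and 164 CPM in WT and at 175, 184 and 193 CPM in THUMPD1 KO. No THUMPD1 KO library fell into the WT range. USP10 thus rose by 0.18 on the log2 scale (SE 0.044, adjusted p = 0.0107) and passed in every fit, with adjusted p between 0.00353 and 0.0485.

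RNF14 (ENSG00000013561.18, chromosome 5, 141958328 to 141990292, plus strand) marks translation factors trapped on stalled ribosomes. It was at 42.4, 46.1 and 43.8 CPM in WT and at 51.1, 52.0 and 50.4 CPM in THUMPD1 KO, again with no overlap. The log2 fold change was 0.21 (SE 0.052, adjusted p = 0.0121). Without THUMPD1 KO replicate 2 the adjusted p was 0.0542, the highest over all settings, and 0.00448 was the lowest.

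RNF10 (ENSG00000022840.16, chromosome 12, 120533480 to 120577588, plus strand) marks proteins of the small subunit that USP10 acts on. It was at 178, 174 and 174 CPM in WT and at 210.1, 186 and 201 CPM in THUMPD1 KO. The WT libraries were close together, and THUMPD1 KO replicate 2 lay nearest to them. The log2 fold change was 0.18 (SE 0.051, adjusted p = 0.0250). The call depended on the setting: it was lost on omission of WT replicates 2 (adjusted p = 0.0679) or 3 (0.0744) and of THUMPD1 KO replicates 1 (0.077) or 3 (0.0828), by edgeR (0.0509) and without the CPM filter (0.0546), and the lowest adjusted p over all settings was 0.00403.

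G3BP1 (ENSG00000145907.15, chromosome 5, 151771045 to 151812911, plus strand), a stress granule protein, was at 399, 437 and 428 CPM in WT and at 462, 505 and 481 CPM in THUMPD1 KO. In both genotypes replicate 1 was the lowest and replicate 2 the highest. G3BP1 rose by 0.17 on the log2 scale (SE 0.050, adjusted p = 0.0285), and the fit with the replicate block gave an adjusted p of 0.00418. G3BP1 did not pass on omission of WT replicates 1 (adjusted p = 0.0692) or 3 (0.0713) and of THUMPD1 KO replicates 2 (0.107) or 3 (0.0804), by edgeR (0.0589) or with the GC and length trend removed (0.0732).

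The other 3 genes of the cycle did not pass. RNF25, a ligase that works with RNF14, had a log2 fold change of 0.12 (adjusted p = 0.289) at 15.5 CPM in WT (SD 0.43, n = 3). CNOT4, the ligase subunit of the CCR4-NOT deadenylase, had 0.08 (adjusted p = 0.322). MKRN1, a ligase found at stalls before poly(A), was the one member with a negative value, −0.08 (adjusted p = 0.189), and it passed (−0.11, adjusted p = 0.0392) when the replicate block and removal of the GC and length trend were combined.

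**Figure D2:**
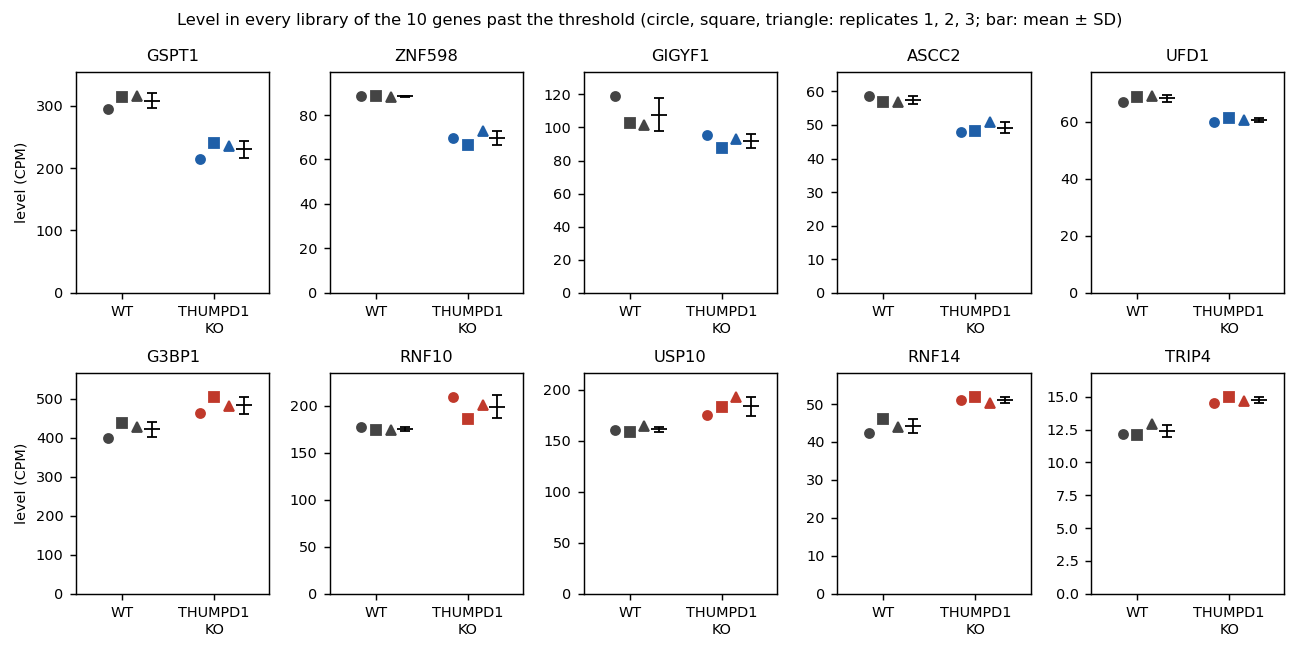
Level in CPM of each of the 10 genes past the threshold, in every library of WT (grey) and THUMPD1 KO (blue where lower, red where higher), with the mean and SD of 3 libraries beside the points. The points of the genotypes do not overlap in any of the 10 panels, and axes start at 0.

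The fall of 4 of the 5 lower genes was shared by their chromosomal neighbours. Within 5 Mb of ZNF598, the other 164 tested genes had a median of −0.39 on the log2 scale. The same median was −0.40 around GSPT1 (55 genes), −0.34 around ASCC2 (76 genes) and −0.36 around UFD1 (106 genes). Over the whole of the short arm of chromosome 16 it was −0.27 (407 genes, 77.9% negative), and over chromosome 22 it was −0.34 (372 genes, 94.1% negative), whereas the long arm of chromosome 16, where USP10 and TCF25 lie, had 0.10 (314 genes). ZNF598 and GSPT1 were within 0.05 of their neighbours, at 0.042 above and 0.039 below them. ASCC2 and UFD1 fell less than their neighbours did, by 0.11 and 0.19. THUMPD1 lies on the same arm, and its neighbours had a median of −0.20 (73 genes). What these regions have in common was not tested.

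Of the 37 genes, 5 had neighbours with a median under −0.3. Those were the 4 genes above and GTPBP1 on chromosome 22, which was at 103, 97.9 and 102 CPM in WT and 91.2, 92.2 and 99.0 CPM in THUMPD1 KO (log2 fold change −0.11, adjusted p = 0.103). Among these 5, 4 fell and none rose. Among the other 32, whose neighbours had medians between −0.18 and 0.15, 5 rose and 1 fell, where 13.7% of all genes tested rose and 13.0% fell. The grouping depends on the window for RNF25, whose neighbours had a median of −0.18 within 5 Mb (51 genes) and of −0.53 within 2 Mb (34 genes), next to its own 0.12. GIGYF1 is the gene that fell among neighbours near 0 (median 0.0078, 116 genes), and it was 0.25 below them. USP10 and G3BP1 lay in regions that were themselves higher, at 0.12 (76 genes) and 0.083 (43 genes), while the neighbours of RNF10 (0.009), TRIP4 (−0.025) and RNF14 (0.067) were closer to 0. Relative to their neighbours, USP10 was at 0.060, G3BP1 at 0.088, RNF14 at 0.14, RNF10 at 0.17 and TRIP4 at 0.29.

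**Figure D3:**
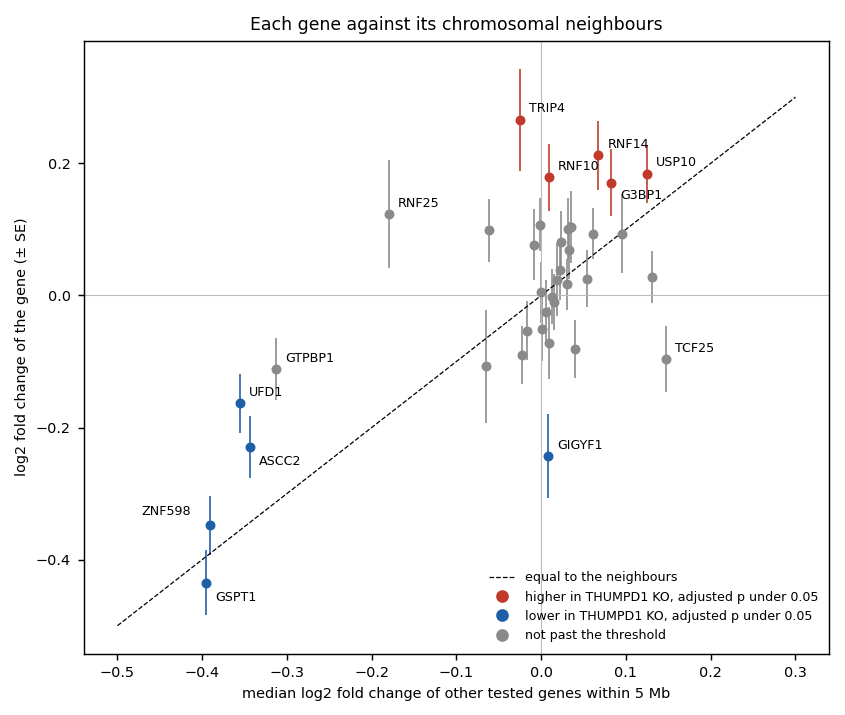
Log2 fold change of each of the 37 genes, with its standard error, against the median log2 fold change of the other tested genes within 5 Mb on its chromosome. ZNF598, GSPT1, ASCC2, UFD1 and GTPBP1 stand at the left with neighbour medians under −0.3, the dashed line marks equality with the neighbours, and GIGYF1 is the blue point with neighbours near 0.

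No gene that rescues, splits or recycles stalled ribosomes passed, where 26.7% of all genes tested did. The median log2 fold change of these 6 was −0.026. PELO, which enters the empty decoding site of a stalled ribosome, was at 29.3, 37.0 and 34.8 CPM in WT and at 30.9, 31.0 and 30.8 CPM in THUMPD1 KO. The WT libraries spread around the narrow THUMPD1 KO values, and replicate 1 was the one below them. The log2 fold change was −0.11 (adjusted p = 0.383), and it passed without WT replicate 1 (−0.22, adjusted p = 0.0113) and without replicate 1 of both genotypes (−0.21, adjusted p = 0.0155). In the other settings the adjusted p reached 0.828 (without WT replicate 2).

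HBS1L, the GTPase that carries PELO, was at 161 CPM in WT (SD 3.23, n = 3) and 162 CPM in THUMPD1 KO (SD 4.90, n = 3), with a 95% interval of −0.09 to 0.09. GTPBP2, a related GTPase, had a log2 fold change of −0.05 (adjusted p = 0.487). ABCE1, the ATPase that separates the subunits, was at 228, 248 and 240.3 CPM in WT and 251, 268 and 254 CPM in THUMPD1 KO. Its libraries did not overlap between genotypes, but the log2 fold change of 0.10 had an adjusted p of 0.133. N4BP2, a relative of the nuclease that cuts mRNA at collisions in yeast, was at 71.1, 65.1 and 65.0 CPM in WT and at 74.2, 70.2 and 70.6 CPM in THUMPD1 KO. WT replicate 1 lay among the THUMPD1 KO libraries. Its log2 fold change was 0.10 (adjusted p = 0.154) and passed without WT replicate 1 (0.14, adjusted p = 0.0422), where the highest value over all settings was 0.407.

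Degradation of the unfinished protein begins with NEMF, which stays on the large subunit and recruits the ligase LTN1. VCP then extracts the marked protein with its cofactors UFD1 and NPLOC4. Of these 8 genes, 1 fell and none rose, where 13.0% and 13.7% of all genes tested did. UFD1 (ENSG00000070010.19, chromosome 22, 19449911 to 19479202, minus strand) was at 67.0, 68.8 and 69.2 CPM in WT and at 60.1, 61.5 and 60.6 CPM in THUMPD1 KO. Both groups were tight and apart. UFD1 had a log2 fold change of −0.16 (SE 0.044, adjusted p = 0.0199). It did not pass on omission of WT replicates 2 (adjusted p = 0.0676) or 3 (0.088) and of THUMPD1 KO replicates 1 (0.0554) or 3 (0.0615), nor without the CPM filter (0.0505), and the lowest adjusted p over all settings was 0.00244.

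The partner cofactor NPLOC4 had a positive value. Its levels were 123, 123 and 119.6 CPM in WT and 133, 131 and 138 CPM in THUMPD1 KO. Although the groups did not overlap, the log2 fold change of 0.11 had an adjusted p of 0.0738. NPLOC4 passed with library sizes alone (adjusted p = 0.0305) and with the GC and length trend removed (0.0118), and without WT replicate 3 the adjusted p was 0.229. VCP itself was at 309 CPM in WT (SD 6.08, n = 3) and 321 CPM in THUMPD1 KO (SD 16.9, n = 3), a log2 fold change of 0.03 (adjusted p = 0.705).

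NEMF was at 91.3, 96.4 and 92.4 CPM in WT and at 89.0, 90.0 and 85.5 CPM in THUMPD1 KO, all below the WT libraries by a small margin. Its log2 fold change of −0.09 (adjusted p = 0.156) passed with the GC and length trend removed (−0.14, adjusted p = 0.0256). LTN1 had a log2 fold change of 0.03 (95% interval −0.06 to 0.12), and TCF25, the third protein of the complex with LTN1, had −0.10 (adjusted p = 0.176) in a region whose genes had a median of 0.15. KLHDC10 and RCHY1, ligases that read alanine tails on released proteins, had log2 fold changes of 0.0045 and 0.10 (adjusted p = 0.952 and 0.188).

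Of the release factors, GSPT1 fell and ETF1 did not pass. GSPT1 (ENSG00000103342.13, chromosome 16, 11868128 to 11916082, minus strand) encodes the GTPase that brings ETF1 to stop codons. It was at 295, 314 and 317 CPM in WT and at 215, 240.3 and 236 CPM in THUMPD1 KO, which on average is 74.8% of WT. The gap between the groups was wider than the spread within either. The log2 fold change of −0.44 (SE 0.049, adjusted p = 1.56e-04) was the most negative of the 37 genes in that fit. GSPT1 passed in every fit, with values from −0.48 to −0.39.

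GSPT2, an intronless paralog of GSPT1 on the X chromosome with the same known function, moved the other way. It was at 11.6, 12.3 and 13.0 CPM in WT and at 15.4, 14.9 and 13.5 CPM in THUMPD1 KO, without overlap. GSPT2 rose by 0.27 on the log2 scale (SE 0.086, adjusted p = 0.0388), but it passed in 5 of the 16 other fits. The call was lost with TMM library sizes (adjusted p = 0.0573), by edgeR (0.0657) and DESeq2 (0.0874), without the CPM filter (0.092) and with the GC and length trend removed (0.0675, or 0.0584 with the block). It was also lost without replicate 1 of both genotypes (0.18, adjusted p = 0.118) and on omission of WT replicates 1 (0.0917) or 2 (0.0709) and of THUMPD1 KO replicates 1 (0.0928) or 2 (0.138), and the lowest adjusted p over all settings was 0.0287. Reads may be divided between these paralogs, and the summed counts of both gave a log2 fold change of −0.40 (SE 0.048, adjusted p = 2.0e-04). ETF1, which recognises stop codons, was at 242, 251 and 253 CPM in WT and at 269.6, 269 and 265 CPM in THUMPD1 KO, higher in every library, yet with a log2 fold change of 0.09 and an adjusted p of 0.0984.

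The SKI complex feeds mRNA from stalled ribosomes into the exosome. None of its 3 genes passed, where 26.7% of all genes tested did. The helicase SKIV2L had a log2 fold change of −0.03, and the scaffold genes TTC37 and WDR61 had 0.07 and 0.04 (adjusted p = 0.736, 0.265 and 0.566). All 3 had levels that overlapped between the genotypes.

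Levels of different genes were compared per length, as CPM per kb of the exonic sequence of each gene. In WT, RACK1 was highest at 247 CPM per kb, followed by EDF1 (67.9), ETF1 (54.8), GSPT1 (38.3), ABCE1 (38.1) and GCN1 (36.1). GSPT1 and ABCE1 differed by less than their SDs of 1.47 and 1.64, so their order is open. The lowest were ASCC1 (5.13), TRIP4 (3.99) and MAP3K20 (3.98), of which TRIP4 and MAP3K20 were level. In THUMPD1 KO, GSPT1 was at 28.6 CPM per kb, below ABCE1 (41.3) and GCN1 (34.7). Subunits of the same complex differed widely in level, with ASCC3 at 17.1 CPM per kb, ASCC2 at 10.6 and TRIP4 at 3.99 in WT. The choice of length mattered: with the length of the canonical transcript, RACK1 was at 1242 CPM per kb and VCP moved up to the third place at 82.6, behind EDF1 at 125. GSPT1 then moved down to the ninth place, MAP3K20 rose to 14.2 and ASCC1 to 12.2 CPM per kb, and the lowest were PELO (7.71), N4BP2 (6.90) and TRIP4 (6.15).

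**Figure D4:**
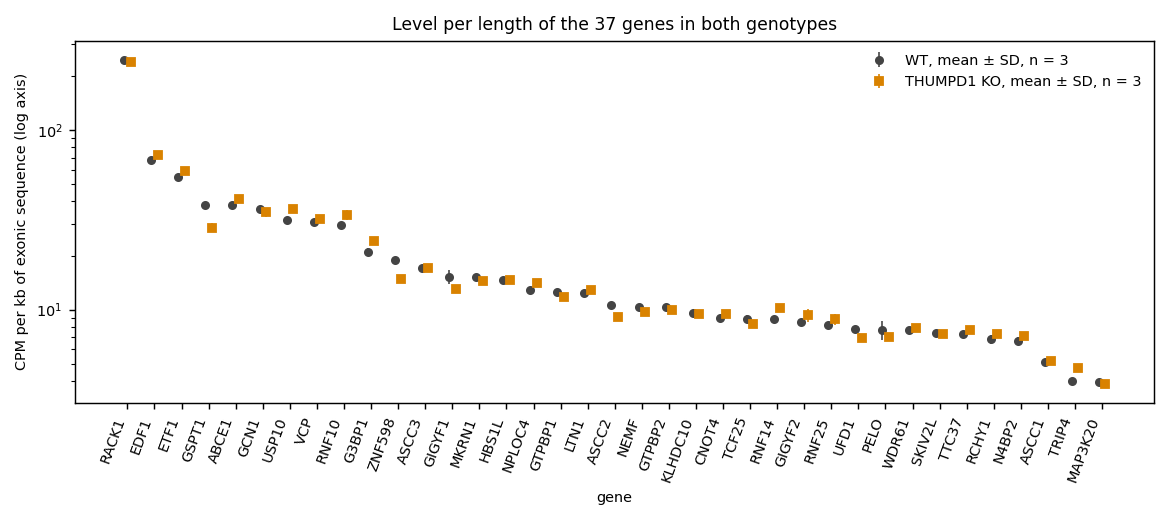
Level of each of the 37 genes in CPM per kb of exonic sequence on a log axis, as mean and SD of 3 libraries in WT (grey circles) and THUMPD1 KO (orange squares), in the order of the WT means. The range runs from 247 for RACK1 to 3.98 for MAP3K20 in WT, and the gap between genotypes is small next to it.

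Because THUMPD1 acts on leucine and serine tRNAs, the codons of the 37 coding sequences were counted in their canonical transcripts, as a description. Leucine made up between 5.36% (G3BP1) and 15.0% (GCN1) of codons, with a median of 8.83%, next to 9.74% over 12586 tested genes with a coding sequence. LTN1 was second at 14.6%. Serine had a median of 7.23%, next to 7.57% over all. The leucine codons UUA, UUG, CUU and CUA took a median of 51.4% of all leucine codons, from 13.3% in TCF25 to 91.2% in ABCE1, next to 41.7% over all genes tested. In the 5 genes that rose that share had a median of 54.9% (35.8 to 63.3%), and in the 5 that fell it was 31.3% (15.7 to 65.1%). These ranges overlapped, and GSPT1, which fell most, had 65.1%, above every gene that rose. The GC content of the canonical transcripts had a median of 45.2% in the genes that rose and 56.7% in those that fell. The separate part of codons and GC content was not tested.

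Genes that work with the 37 were read from the same fit, in 9 lists of 80 genes in all, every one of which passed the CPM filter. Of these, 13 rose and 6 fell, which is 23.8% called next to 26.7% of all genes tested, so the count is no result about these lists. The total of 19 calls became 29 with the replicate number as a block, 12 without WT replicate 3 and 12 without THUMPD1 KO replicate 2. Among 8 partners in the handling of the unfinished protein, 1 rose and 2 fell. ANKZF1, which cuts the peptide off its tRNA, was at 33.2, 25.8 and 26.0 CPM in WT and at 16.7, 15.1 and 16.7 CPM in THUMPD1 KO, clearly apart, with a log2 fold change of −0.80 (adjusted p = 2.16e-04) and a neighbour median of −0.15. FAF2, a VCP adaptor, rose by 0.17 (adjusted p = 0.0108, and 0.0599 without WT replicate 3).

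Of 8 partners of the GIGYF proteins and of deubiquitination, OTUD3, a deubiquitinase, rose by 0.31 (adjusted p = 0.00131) and EIF4E2, the cap-binding repressor held by GIGYF proteins, by 0.17 (adjusted p = 0.0298). EIF4E2 passed in 7 of the 16 other fits and was lost without WT replicate 1 (adjusted p = 0.0581), without THUMPD1 KO replicates 1 (0.0735), 2 (0.0891) or 3 (0.0586) and by DESeq2 (0.0919, the highest). Of 6 proteins that are ubiquitin targets on the ribosome, RPS2 fell by 0.24 (adjusted p = 0.0021). RPS2 lies near ZNF598 in the region with a neighbour median of −0.39, and it shares exonic bases with a pair of small nucleolar RNAs and a pseudogene. Of 9 genes of GCN2 and ZAK signalling, MAPK14 rose by 0.15 (adjusted p = 0.029). MAPK14 passed in 9 of the 16 other fits and was lost without WT replicates 2 (adjusted p = 0.117, the highest) or 3 (0.088) and without THUMPD1 KO replicates 2 (0.0914) or 3 (0.081). Of 7 partners in termination and recycling, GSPT2 rose as given above, and TRMT112, a cofactor of the methyltransferase of ETF1, fell by 0.18 (adjusted p = 0.0436). TRMT112 also passed in 9 of those 16, but not without WT replicates 2 (adjusted p = 0.139) or 3 (0.152, the highest) or without THUMPD1 KO replicates 1 (0.125), 2 (0.0842) or 3 (0.0944).

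Nonsense-mediated decay, which degrades mRNAs at early stop codons, had 5 of 10 genes higher and 1 lower, where 13.7% and 13.0% of all genes tested were, and a median log2 fold change of 0.16. The list is one of 9 that were chosen with earlier results known, so this count is a description. SMG5 (0.21, adjusted p = 0.00469), UPF1 (0.21, adjusted p = 0.00563) and SMG6 (0.19, adjusted p = 0.0111) rose. SMG1, the kinase of the pathway, fell by 0.29 (adjusted p = 0.00769). It lies on the short arm of chromosome 16 among genes with a median of −0.31, and it has near-identical pseudogene copies, which leaves its count uncertain. Of 14 genes of the exosome and the decay from the other end, EXOSC6 (0.26, adjusted p = 0.0035) and DIS3 (0.14, adjusted p = 0.0179) rose. DIS3 passed in 10 of the 16 other fits. It was lost without WT replicates 2 (adjusted p = 0.0561) or 3 (0.0654), without THUMPD1 KO replicate 2 (0.0804) and by edgeR (0.0728). The call was also lost with TMM library sizes (0.0501) and with the GC and length trend removed (0.0613). Of 10 genes of the CCR4-NOT deadenylase, CNOT6L fell by 0.16 (adjusted p = 0.0158), a call lost without WT replicate 3 (0.0731) or THUMPD1 KO replicate 3 (0.0529). Of 8 genes of UFMylation, a ubiquitin-like mark on the large subunit, UFSP2 rose by 0.28 (adjusted p = 0.0312). It passed in 8 of the 16 other fits, and was lost without WT replicates 1 (adjusted p = 0.0679) or 3 (0.0703), without THUMPD1 KO replicates 1 (0.0673) or 2 (0.134, the highest) and without replicate 1 of both genotypes (0.0746).

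Some counts could hold reads of overlapping genes. The libraries were made with a stranded kit, but the sources used here do not say whether strand was used in counting. Of the 10 genes past the threshold, GIGYF1, ASCC2 and USP10 overlap no other annotated gene. ZNF598, UFD1, RNF10, RNF14 and G3BP1 share exonic bases with a gene on the opposite strand, with 504 bases shared with 1 long noncoding RNA in ZNF598 and 427, 195 and 114 bases shared with 3 of them in UFD1. RNF10 also shares 261 exonic bases with a protein-coding gene on its own strand (ENSG00000288623). Among the other genes, PELO lies inside ITGA1 on the same strand, NEMF shares 3010 exonic bases with KLHDC2 on the opposite strand, and RACK1 hosts the small nucleolar RNAs SNORD95 and SNORD96A.

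Calls across settings are given for the 17 genes that passed in any of them. ZNF598, GSPT1, ASCC2 and USP10 passed in all 17 fits, that is, the one reported above and 16 others. Each count of calls is set beside the percentage of all tested genes called in the same fit. There were 10 calls with TMM library sizes (25.8%), 11 with library sizes alone (25.9%), 10 with 1 CPM required in all 6 libraries (26.9%) and 7 without a CPM filter (10.1%). edgeR made 8 calls (25.7%) and DESeq2 made 9 (24.3%). The replicate block left the same 10 genes (35.1%), removal of the GC and length trends gave 11 (29.3%), and both together gave 14 (36.9%). Omission of 1 WT library gave 10 (replicate 1, 28.1%), 7 (replicate 2, 21.5%) and 7 calls (replicate 3, 18.1%). Omission of 1 THUMPD1 KO library gave 9 (replicate 1, 24.0%), 6 (replicate 2, 17.6%) and 5 calls (replicate 3, 18.6%). Without replicate 1 of both genotypes there were 12 calls (32.4%), and all 10 genes kept theirs.

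**Figure D5:**
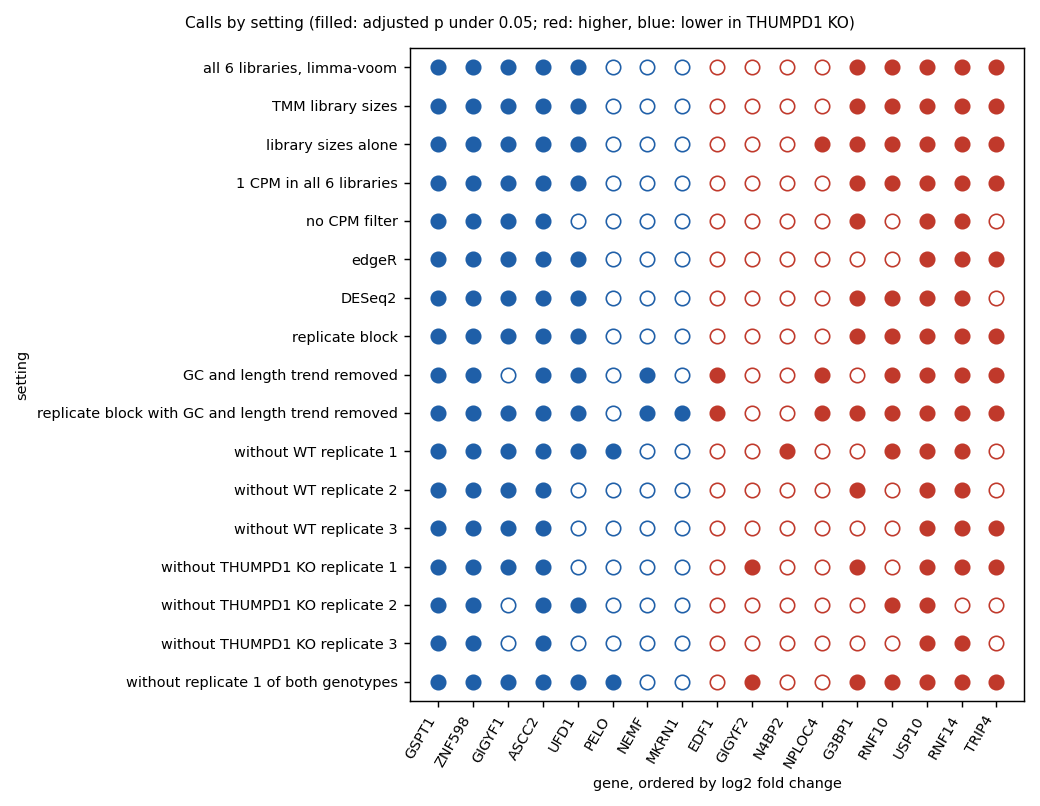
Calls of the 17 genes that passed in at least 1 of 17 fits, with 1 row per setting. Filled circles passed an adjusted p of 0.05, open circles did not, red stands for a positive and blue for a negative log2 fold change in THUMPD1 KO, and GSPT1, ZNF598, ASCC2 and USP10 are filled in every row.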

How the data were processed

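Total RNA of 3 WT and 3 THUMPD1 KO libraries of HEK-293T cells was depleted of ribosomal RNA, prepared with a stranded kit and sequenced in paired-end mode. The authors aligned reads to GRCh38 (hg38) with STAR and deposited expected counts per gene estimated with RSEM, which need not be whole and are not scaled between libraries. Tool versions and the strand setting of the counting are not given in the sources used here. Positions, exonic lengths, GC content and coding sequences came from GENCODE 44, which held 58472 (99.3%) of the 58870 gene IDs. Of 58517 matched rows, 15267 carry a lower ID version than release 44, whereas the study names a release later than that. This difference was not resolved.

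Groups and replicate numbers came from the sample labels. Following the study, genes of at least 1 CPM were kept (here in at least 3 libraries, a number the study does not state), which left 15088 genes with 99.7 to 99.8% of counts. After quantile normalization, limma-voom (limma 3.58.1, R 4.3.3) was fitted with genotype alone. Two-sided tests had Benjamini-Hochberg adjustment over all genes tested and a threshold of 0.05. For THUMPD1, a two-sided exact permutation test of CPM over 20 groupings gave p = 0.1, the smallest value possible. Replicates of a genotype differed by more than counting noise (chi-square over its degrees of freedom, 4.29 to 18.3), and each was counted as 1 sample; this does not show that they came from separate cultures. Levels are CPM from the deposited counts, as mean ± SD, and their precision is limited by n = 3. A listed count of 0 allows up to 3 counts, or 0.068 to 0.0931 CPM, for counting error only.

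Libraries of equal replicate number were more alike: deviations from the genotype means correlated at 0.266, 0.211 and 0.139 for equal numbers, and at −0.235 to 0.0815 for unequal ones (14941 genes). With 3 libraries per genotype, this does not establish that the libraries were paired. Alternatives were TMM or plain library sizes, a CPM filter in all 6 libraries or none, the edgeR 4.0.16 quasi-likelihood test and DESeq2 1.42.0 on rounded counts, the replicate block, removal of trends along GC content and length (splines with 5 degrees of freedom, values known for 99.4% of genes), and each library left out. Omission of replicate 1 in both genotypes, the summed GSPT1 and GSPT2 counts and the canonical transcript length were added after seeing the data. Neighbour medians used 5 Mb, and 2 and 10 Mb as alternatives. The fitting code was run on simulated counts with a common dispersion for all genes and no replicate effect. This does not measure the error of the calls in these libraries. Promoter stretches came from RefSeq (GRCh38.p14), where 33 of the 37 genes were matched, 3 of them by their current names. The 37 genes, their roles and the other lists were chosen with earlier results of these data known. All 37 were named, with EIF2AK4, some markers and at most 4 genes past the threshold, by smallest adjusted p, of each partner list. Results for some genes of the marker and partner lists are not reported here.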

Additional observations from a re-analysis of the deposited data

How the results depend on the processing

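THUMPD1 kept its direction and its side of the threshold in all 16 other fits, with −2.96 to −2.79 when 1 library was left out. Calls among the 37 genes numbered 5 to 10 when 1 library was left out, with 6 without THUMPD1 KO replicate 2 and 5 without THUMPD1 KO replicate 3. The 80 genes of the other lists had 12 to 20 calls when 1 library was left out, with 12 without WT replicate 3 and 12 without THUMPD1 KO replicate 2, 26 without replicate 1 of both genotypes and 29 with the replicate block. All genes called numbered 2663 to 4245 when 1 library was left out, lowest without THUMPD1 KO replicate 2, with 4884 without replicate 1 of both genotypes, 3200 without a CPM filter and 5571 with the replicate block and the GC and length trend removed. With the replicate block alone, the 37 genes had 10 calls, on the same 10 genes, and 5297 genes were called in all. The block left every other named gene on its side of the threshold. The cause of these shifts was not tested. Fits with 1 library left out also rest on fewer libraries, and the part of that was not tested either.

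The signs of 8 genes with values near 0 turned, and none of these genes passed in any of the 16 other fits. RACK1 was at −0.066 with TMM, −0.040 with library sizes alone, −0.066 by edgeR and DESeq2 and −0.0017 to 0.025 when 1 library was left out (lowest without THUMPD1 KO replicate 1). ASCC1 was at −0.0059 with TMM and DESeq2, −0.0064 by edgeR, −0.036 with the GC and length trend removed (−0.035 with the block) and −0.00051 to 0.052 when 1 library was left out (lowest without THUMPD1 KO replicate 1). KLHDC10 was at −0.031 with TMM, edgeR and DESeq2, −0.0063 with library sizes alone, −0.028 with the GC and length trend removed (−0.028 with the block), −0.020 without WT replicate 1, −0.012 without THUMPD1 KO replicate 3, −0.011 without replicate 1 of both genotypes and at most 0.025 when 1 library was left out. HBS1L was at 0.0038 with library sizes alone, 0.00068 without a CPM filter, 0.0032 and 0.0059 on omission of WT replicates 2 and 3, and 0.024 on omission of THUMPD1 KO replicate 3, with −0.029 without replicate 1 of both genotypes. ASCC3 was at 0.0014 with library sizes alone and −0.041 to 0.018 when 1 library was left out (highest without THUMPD1 KO replicate 3), and VCP at −0.0085 to 0.050 (lowest without THUMPD1 KO replicate 3). LTN1 was at −0.015 and SKIV2L at 0.032 with the GC and length trend removed (−0.015 and 0.030 with the block), and SKIV2L at 0.0022 without replicate 1 of both genotypes and at −0.047 without WT replicate 3. Taken relative to neighbours within 5 Mb, ZNF598 was at 0.042, ASCC2 at 0.11 and UFD1 at 0.19. With the canonical transcript length, the WT level per kb of 34 of the 37 genes moved by more than the replicate SD. Counting depth is high for these genes, so that the 3 libraries per genotype set the limit on what could be detected.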
